A study of Mus musculus with 6 samples.

Results

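Astrocyte genes of the aged cerebrum were followed in mice with a single working copy of Sgo1 and in wild-type mice. The 10 genes were the rows of the deposited table of 38087 genes whose symbol is Gfap, Vim, Serpina3n or Lcn2, taken as 4 reactive genes, or Aqp4, S100b, Aldh1l1, Gja1, Slc1a2 or Slc1a3, taken as 6 identity genes. The WT group held 3 wild-type C57BL6 mice and the Sgo1-/+ group held 3 C57BL6 mice heterozygous for Shugoshin-1, a protector of the cohesin that joins sister chromatids. All 6 mice were 24 months old, and 1 RNA library was made per mouse. By the methods, the tissue was cerebrum with cortex and hippocampus, without the olfactory bulb, cerebellum and medulla. Each group held 1 male, which was WT replicate 1 and Sgo1-/+ replicate 2. Run 258 held the 3 WT libraries and run 259 the 3 Sgo1-/+ libraries, so a difference between genotypes and a difference between runs cannot be told apart. In whole tissue, fewer cells of a type and less RNA per cell cannot be told apart either.

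Astrocytes are the glial cells that clear transmitter and potassium from around synapses and line the blood vessels of the brain with their endfeet. Their identity genes encode this daily machinery. Slc1a2 (GLT-1) and Slc1a3 (GLAST) are the main glutamate transporters, Aqp4 is the water channel of the endfeet, Gja1 (connexin 43) forms gap junctions, Aldh1l1 is an enzyme of folate metabolism and S100b is a calcium-binding protein. After injury, in inflammation and near amyloid plaques, astrocytes become reactive. They then make more of the intermediate filament proteins GFAP and vimentin, of the protease inhibitor Serpina3n and of lipocalin-2, a protein that binds bacterial iron carriers, and cytokines acting through STAT3 are a known route to this state.

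The stretches before the starts of the 4 reactive genes are shown because these genes varied most among the 5 libraries other than WT replicate 1, which stands apart, and that of Slc1a3 because it holds the same motif as Gfap. No window of Aqp4 was searched, so its motifs were not tested. RefSeq windows on GRCm38.p6, each of 250 bases before and 50 bases after the start, were used for 9 of the 10 genes. They were searched on both strands for TTCNNNGAA, a motif bound by STAT factors, and for TGANTCA, a motif bound by AP-1, which do not overlap in any of these windows. The first is in 8.3% and the second in 7.81% of the 32851 windows of this length that were searched, a set without Aqp4. Among the 9 genes, TTCNNNGAA is in the windows of Gfap and Slc1a3 and TGANTCA is in that of Gja1, and the letters say nothing of binding in these mice. The lines below run 5′ to 3′ and end 10 bases after the start, with a matched TTCNNNGAA in capitals. The windows are chr11:102897191-102897450 on the minus strand for Gfap, chr2:13574061-13574320 on the plus strand for Vim, chr12:104406458-104406717 on the plus strand for Serpina3n, chr2:32387730-32387989 on the minus strand for Lcn2 and chr15:8710798-8711057 on the minus strand for Slc1a3.
Gfap: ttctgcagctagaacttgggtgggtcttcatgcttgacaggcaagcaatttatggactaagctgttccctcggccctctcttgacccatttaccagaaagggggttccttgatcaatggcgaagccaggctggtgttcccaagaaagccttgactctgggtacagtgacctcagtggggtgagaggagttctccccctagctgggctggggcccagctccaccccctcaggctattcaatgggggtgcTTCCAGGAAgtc
Vim: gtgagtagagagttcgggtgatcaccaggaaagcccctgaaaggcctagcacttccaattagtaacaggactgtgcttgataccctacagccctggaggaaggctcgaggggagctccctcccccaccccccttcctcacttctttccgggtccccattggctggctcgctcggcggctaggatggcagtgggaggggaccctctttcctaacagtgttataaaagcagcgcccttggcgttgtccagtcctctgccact
Serpina3n: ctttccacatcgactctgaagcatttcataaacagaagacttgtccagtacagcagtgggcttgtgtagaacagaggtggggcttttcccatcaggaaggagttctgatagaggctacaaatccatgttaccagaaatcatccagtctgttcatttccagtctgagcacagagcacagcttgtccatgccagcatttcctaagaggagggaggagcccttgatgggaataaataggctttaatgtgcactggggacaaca
Lcn2: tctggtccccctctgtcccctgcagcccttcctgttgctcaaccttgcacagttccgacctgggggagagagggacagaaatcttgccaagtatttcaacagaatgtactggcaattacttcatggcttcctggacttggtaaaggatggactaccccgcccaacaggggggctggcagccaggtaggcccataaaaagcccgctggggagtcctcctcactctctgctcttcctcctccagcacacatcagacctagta
Slc1a3: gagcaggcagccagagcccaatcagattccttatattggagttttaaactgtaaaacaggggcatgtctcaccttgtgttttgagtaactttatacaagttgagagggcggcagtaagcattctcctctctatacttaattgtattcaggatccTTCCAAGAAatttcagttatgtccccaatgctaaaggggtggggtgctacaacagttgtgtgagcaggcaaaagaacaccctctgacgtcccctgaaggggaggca
The STAT motif thus lies across the start of Gfap and 96 bases before the start of Slc1a3.

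The libraries held between 11123917 and 12505561 estimated counts. Sgo1 itself, listed as Sgol1, had between 0 and 6.67 normalized counts per library, too few to check the genotypes. WT replicate 1 stood apart, with RNA of regions that the dissection was to leave out. Its 9 brain stem genes summed to 353 CPM (TMM-scaled counts in a library of 1000000), against 2.43 to 5.29 in the other 5 libraries, where Hoxb3 and Hoxb5 were at or under 3 normalized counts. Its 9 cerebellar granule cell genes summed to 1652 CPM against 84.3 to 227, with Gabra6 at 0 in Sgo1-/+ replicate 2, and its 8 neuron genes to 4968 against 9508 to 12118. The fold changes of the 10 genes are therefore given with and without WT replicate 1, and the part of these regions in them was not tested. The olfactory bulb was also to be left out, and its 6 genes summed to 414 and 406 CPM in WT replicates 2 and 3 against 206 to 355 in the other 4 libraries. Without WT replicate 1, 5 of these 6 genes were lower in Sgo1-/+ at an unadjusted p under 0.05 in edgeR, against 3.77% of all genes in either direction, and the part of this region was not tested.

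**Figure D1:**
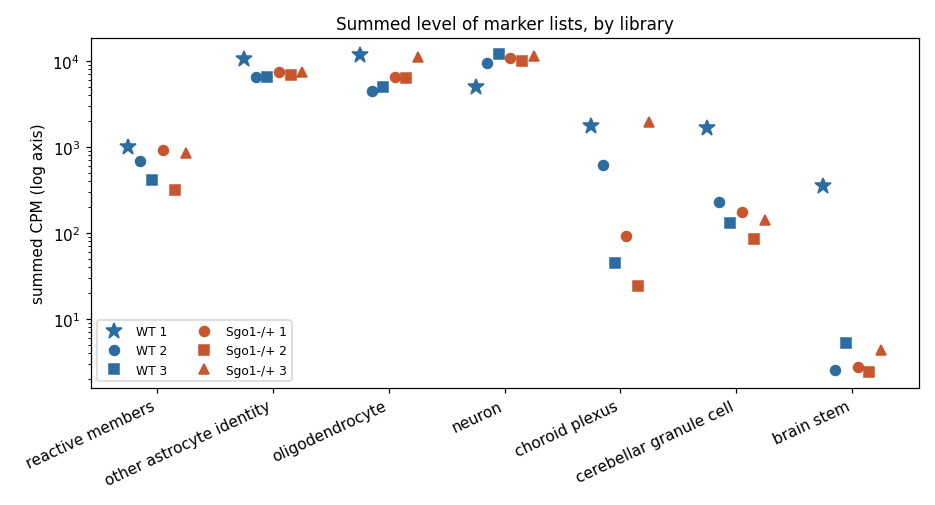
Summed CPM (log axis) of 7 gene lists in each of the 6 libraries, with WT in blue and Sgo1-/+ in orange. The star, WT replicate 1, is far above the other libraries for the brain stem and granule cell lists, lowest for the neuron list and highest for the list of other astrocyte identity genes.

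Compared per length, as CPM per kilobase of exon, Slc1a2 was the most abundant of the 10 genes with 159 ± 33.8 (SD, n = 6). S100b followed with 150 ± 103, Gfap with 130 ± 52.8 and Slc1a3 with 73.6 ± 8.83. Serpina3n with 33.1 ± 14.1, Aqp4 with 29.1 ± 19.8, Gja1 with 19.1 ± 2.88, Vim with 16.8 ± 9.60 and Aldh1l1 with 14.1 ± 2.98 made up a middle group, and Lcn2 was lowest with 1.27 ± 1.37. These means include WT replicate 1, where S100b was at 354 and Aqp4 at 68.5. In the other libraries they ran from 71.8 to 142 and from 16.7 to 29.6, so the places of both rest partly on that library. Only at 2 places in this order did neighbours have ranges that did not overlap. Slc1a3 was above Serpina3n, and Aldh1l1 above Lcn2, in 6 of 6 libraries. Elsewhere the ranges of neighbours overlapped over the 6 libraries, and S100b exceeded Gfap in 3 of 6 libraries. Slc1a2 exceeded S100b in 5 of 6 libraries, all but WT replicate 1. Outside that library Slc1a2 ran from 158 to 182 and S100b from 71.8 to 142. The order depends in part on the division by length. By CPM alone S100b took place 4 instead of 2 and Gja1 place 5 instead of 7. Vim took place 7 instead of 8, and Serpina3n place 8 instead of 5.

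**Figure D2:**
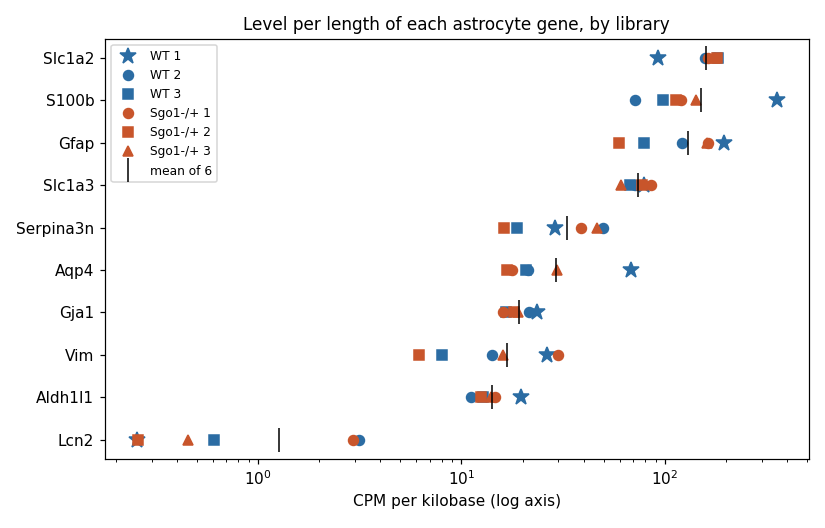
Level of each of the 10 astrocyte genes as CPM per kilobase (log axis), a point per library and a bar for the mean of 6. Slc1a2, S100b and Gfap lie highest and Lcn2 lowest. The points of the reactive genes are spread more widely than those of Gja1 and Slc1a3. Those of Aqp4 and S100b are spread widely too, with WT replicate 1 far above the others.

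The first question was whether the reactive genes differed between Sgo1-/+ and WT. They did not differ beyond the spread between mice. The 4 genes varied several-fold from mouse to mouse within each genotype, and the libraries of the 2 genotypes interleaved. Values are normalized counts, which are estimated counts scaled to a common library size by TMM, and log2 fold changes are Sgo1-/+ over WT with a standard error (SE).

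Gfap (ENSMUSG00000020932, mm10 chromosome 11, 102887336 to 102900912, minus strand) encodes the filament protein that marks reactive astrocytes. In the order of the replicate numbers, WT mice had 9928, 6211 and 4003 normalized counts and Sgo1-/+ mice 8306, 3033 and 8208. The highest library was WT replicate 1 and the lowest Sgo1-/+ replicate 2, so the groups overlapped. The means were 6714 ± 2995 in WT and 6516 ± 3016 in Sgo1-/+ (SD, n = 3 each). Their log2 fold change was -0.04 (SE 0.46), at an adjusted p of 0.9999 by edgeR's quasi-likelihood test and Benjamini-Hochberg adjustment. Without WT replicate 1 it was 0.35 (SE 0.41).

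Vim (ENSMUSG00000026728, mm10 chromosome 2, 13573927 to 13582826, plus strand) encodes vimentin, a filament partner of GFAP that vessel, meningeal and ependymal cells also make. Its normalized counts were 1512, 807 and 461 in WT and 1712, 354 and 917 in Sgo1-/+. Both the highest and the lowest library were Sgo1-/+, and the 3 WT values lay between them. The log2 fold change was 0.10 (SE 0.61), going to 0.65 (SE 0.57) without WT replicate 1.

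Serpina3n (ENSMUSG00000021091, mm10 chromosome 12, 104406729 to 104414329, plus strand) had 719, 1244 and 467 normalized counts in WT and 960, 405 and 1157 in Sgo1-/+. WT replicate 2 was highest here and Sgo1-/+ replicate 2 lowest, and the log2 fold change was 0.05 (SE 0.46) with and -0.03 (SE 0.49) without WT replicate 1. Close copies of this gene could share reads with it. Among the 14 Serpina3 genes of the table, Serpina3n held between 86.8 and 99.8% of the summed normalized counts of a library.

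Lcn2 (ENSMUSG00000026822, mm10 chromosome 2, 32384633 to 32387797, minus strand) was scarce and the most uneven of the 10 genes. It had 8.06, 99.0 and 19.3 normalized counts in WT and 92.4, 8.11 and 14.3 in Sgo1-/+. WT replicate 2 and Sgo1-/+ replicate 1, a library of each genotype, were high, and the other 4 were low. The log2 fold change was -0.14 (SE 1.12), going to -0.63 (SE 1.00) without WT replicate 1. Lcn2 is also a neutrophil product, and the neutrophil genes Ngp, Camp, S100a8 and S100a9 were highest in WT replicate 2. Ngp had 89.5 normalized counts there but 3.97 in Sgo1-/+ replicate 1, and S100a8 204 against 19.9. With the hemoglobin gene Hba-a1, which had 6775 normalized counts in Sgo1-/+ replicate 1, the list of 5 neutrophil and blood genes summed to 567 CPM in that library, 230 in WT replicate 2 and 46.0 to 177 in the other 4. Their part in the Lcn2 values was not tested.

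The reactive genes Gfap, Vim and Serpina3n, were lowest in the same library, Sgo1-/+ replicate 2, and were next lowest in WT replicate 3. The marker lists of ependyma and choroid plexus were also lowest in these libraries. The 6 ependymal genes summed to 13.4 and 12.02 CPM there against 21.3 to 37.4 in the other 4, and the 6 choroid plexus genes to 24.2 and 45.1 against 92.8 to 1952, with Folr1 at 0 in Sgo1-/+ replicate 2. The list of mural cell and fibroblast genes was lowest in them too, with 140 CPM in Sgo1-/+ replicate 2 and 209 in WT replicate 3 against 233 to 285. Their part in the levels of the reactive genes was not tested. Gfap spanned 3.27-fold, Vim 4.84-fold, Serpina3n 3.07-fold and Lcn2 12.3-fold over the 6 libraries.

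**Figure D3:**
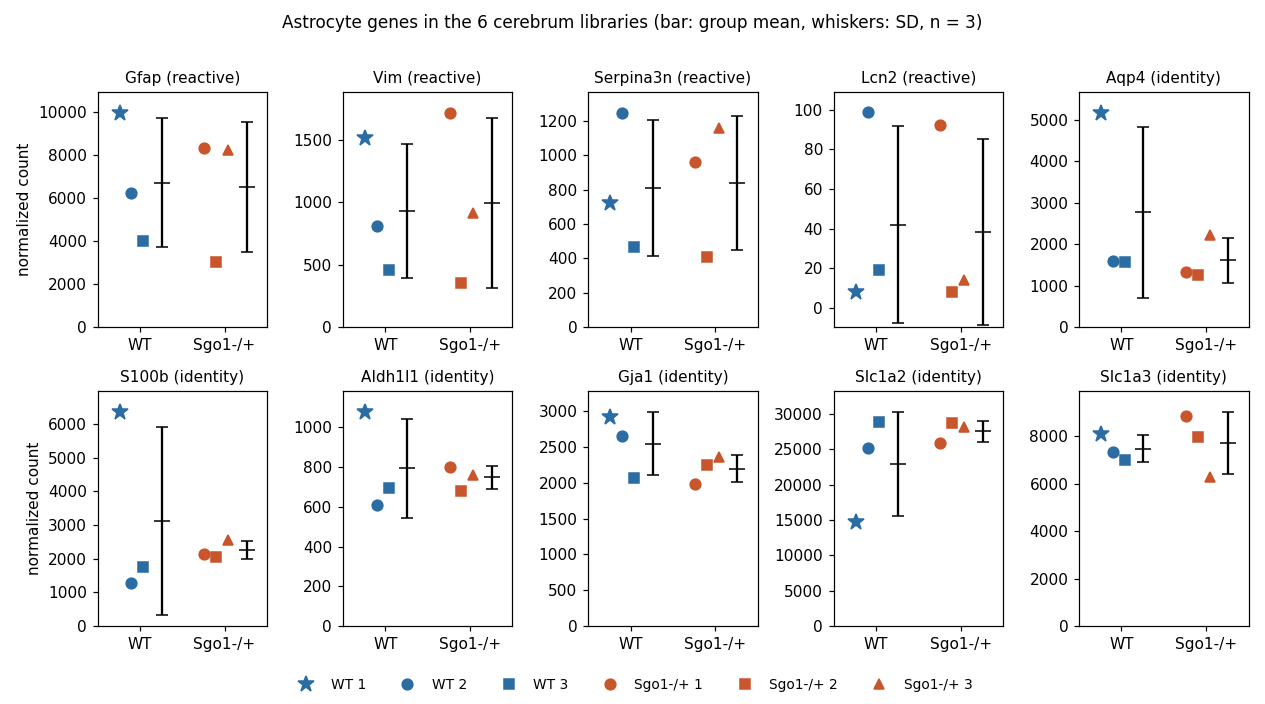
Normalized counts of the 10 astrocyte genes in 3 WT (blue) and 3 Sgo1-/+ (orange) libraries, with the group mean and SD beside the points. Both genotypes hold high and low libraries for the reactive genes, and WT replicate 1 (star) sets the WT spread of Aqp4, S100b and Slc1a2.

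The second question was whether the astrocytes' standing machinery differed. Apart from WT replicate 1, the libraries lay within 1.41-fold of each other for Slc1a2, Aldh1l1, Gja1 and Slc1a3, within 1.77-fold for Aqp4 and within 1.98-fold for S100b. Slc1a3 had 8107, 7319 and 6983 normalized counts in WT and 8849, 7959 and 6280 in Sgo1-/+. The highest and the lowest value were both Sgo1-/+, and the log2 fold change was 0.04 (SE 0.16), or 0.11 (SE 0.15) without WT replicate 1. Gja1 had 2914, 2650 and 2059 in WT and 1985, 2246 and 2353 in Sgo1-/+. Its 2 highest libraries were WT, yet WT replicate 3 was below 2 of the Sgo1-/+ libraries, and the log2 fold change was -0.21 (SE 0.16), or -0.10 (SE 0.14) without WT replicate 1. Aldh1l1 had 1074, 610 and 693 in WT and 798, 681 and 761 in Sgo1-/+, so that WT held both ends, with a log2 fold change of -0.09 (SE 0.22) that was 0.20 (SE 0.12) without WT replicate 1. Exons of Aldh1l1 share 105 bases with Gm45901 on the same strand and 499 with Gm15756 on the other, those of Slc1a2 share 189 with Gm13872 on the other strand, and the sources used here do not say whether counting used the strand.

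Slc1a2 (ENSMUSG00000005089, mm10 chromosome 2, 102658659 to 102790784, plus strand) had 14711, 25090 and 28829 normalized counts in WT and 25853, 28619 and 28110 in Sgo1-/+. WT replicate 1 was lowest, at 0.523 times the median of the other 5, which lay within 1.15-fold of each other. The log2 fold change of 0.27 (SE 0.25) came down to 0.03 (SE 0.11) once WT replicate 1 was left out. The 2 glutamate transporters thus parted in this library. The ratio of Slc1a2 to Slc1a3 normalized counts was 1.81 there and 2.92 to 4.48 in the other libraries.

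Aqp4 and S100b (ENSMUSG00000033208, mm10 chromosome 10, 76253853 to 76261159, plus strand) were high in WT replicate 1. Aqp4 had 5155, 1593 and 1565 normalized counts in WT and 1335, 1259 and 2228 in Sgo1-/+. Without the first library the groups still overlapped, and the log2 fold change went from -0.79 (SE 0.51) to 0.03 (SE 0.24). S100b had 6342, 1285 and 1754 in WT and 2154, 2042 and 2548 in Sgo1-/+. WT held the highest and the 2 lowest libraries, and the log2 fold change of -0.48 (SE 0.57) became 0.56 (SE 0.16) without WT replicate 1. In WT replicate 1 Aqp4 was 3.29 times and S100b 3.11 times the median of the other 5 libraries, whereas Gja1 was 1.30 times and Aldh1l1 1.55 times. At least 2-fold excess in this library was found for 5% of all genes tested. The 8 oligodendrocyte genes summed to 11865 CPM in this library against 4493 to 11210 in the others. The 6 genes of cerebellar Bergmann glia summed to 909 CPM against 362 to 540. Their part in the Aqp4 and S100b values was not tested.

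In the comparison as a whole, 0 of the 10 genes passed an adjusted p of 0.05 in edgeR, and 0 had an unadjusted p under 0.05, the unadjusted values running from 0.165 for Aqp4 to 0.927 for Gfap. Of all 16337 genes tested, 0 (0%) passed the adjusted threshold, and 333 (2.04%) had an unadjusted p under 0.05, 0.808% being higher and 1.23% lower in Sgo1-/+. DESeq2 passed 3 genes and limma 0 genes after adjustment, with 0 of the 10 astrocyte genes under an unadjusted p of 0.05 in either tool. The groups overlapped for 10 of 10 genes, against 6.81% of all genes without overlap. By an exact permutation test, two-sided, p ran from 0.3 to 1 among the 10 genes, where 0.1 is the smallest that 3 against 3 mice allow. The median log2 fold change was 0.01 over the 4 reactive and -0.15 over the 6 identity genes, and it was -0.00069 over all genes tested. Without WT replicate 1 the medians were 0.16 and 0.07, against 0.0055 over all genes. The SEs of the reactive genes were large, and differences of the size of the SE of Vim or Lcn2 were not detectable with 3 mice per group.

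**Figure D4:**
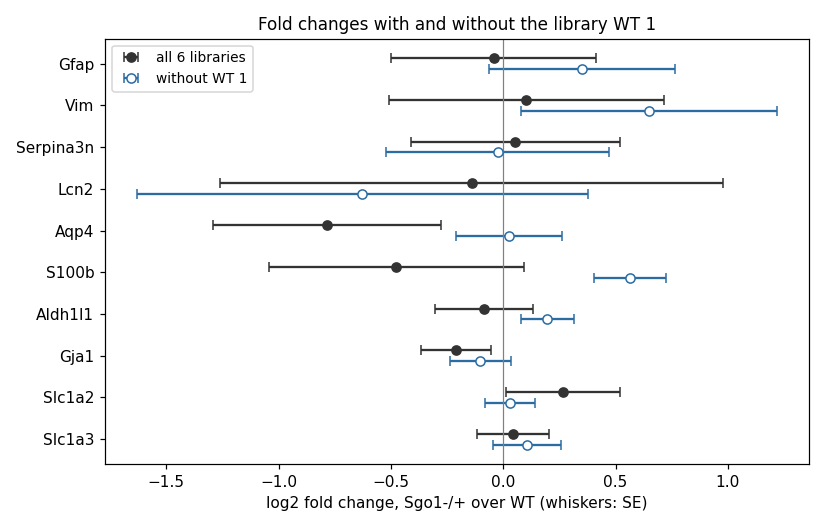
Log2 fold change of each astrocyte gene, Sgo1-/+ over WT, with its SE, from all 6 libraries (filled) and without WT replicate 1 (open). With all libraries every value but that of Aqp4, Gja1 and Slc1a2 is within 1 SE of 0, and S100b moves from -0.48 to 0.56 when WT replicate 1 is left out.

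Without WT replicate 1, S100b was the only one of the 10 genes with an unadjusted p under 0.05 (edgeR, 0.00913, adjusted p 0.9995), and the only one whose groups did not overlap. Of all genes in that fit, 3.77% had such a p (1.86% higher in Sgo1-/+), and 17.9% did not overlap between the groups (8.72% higher). Oligodendrocytes also make S100b, and 7 of 8 oligodendrocyte genes had an unadjusted p under 0.05 and were higher in Sgo1-/+ in the same fit. Their sum was 4493 and 4914 CPM in WT replicates 2 and 3 against 6371 to 11210 in Sgo1-/+. Their part in the S100b difference was not tested.

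Among the 4 females, 2 of each genotype, Gfap and Vim were higher in Sgo1-/+ at an unadjusted p only. Gfap had 6211 and 4003 normalized counts in the WT females and 8306 and 8208 in the Sgo1-/+ females, and the log2 fold change was 0.69 (SE 0.22, unadjusted p 0.0168 in edgeR). Vim had 807 and 461 against 1712 and 917, with a log2 fold change of 1.05 (SE 0.36, unadjusted p 0.0241 in edgeR). With S100b at 0.63 (SE 0.18, unadjusted p 0.0113 in edgeR), 3 of the 10 genes had such a p, against 3.51% of all genes in that fit (2.08% higher in Sgo1-/+). The adjusted p of these 3 genes was 0.9999. The groups of females did not overlap for 4 of the 10 genes, and with 2 against 2 mice this held for 30.6% of all genes. This comparison leaves out both WT replicate 1 and Sgo1-/+ replicate 2, the library lowest for Gfap, Vim and Serpina3n. Several gene lists parted these females in the same direction. The 25 other astrocyte identity genes described below summed to 6578 and 6524 CPM in the WT females and 7523 and 7502 in the Sgo1-/+ females. Their median log2 fold change was 0.15. That of the other shared reactive genes described below was 0.59, though the sums of that list overlapped, as did those of the 6 identity genes. Ependymal genes summed to 21.3 and 12.02 CPM in the WT females and 25.02 and 37.4 in the Sgo1-/+ females, oligodendrocyte genes to 4493 and 4914 against 6491 and 11210, and microglial genes to 333 and 354 against 390 and 420. Olfactory bulb genes went the other way, with 414 and 406 against 355 and 206. Their part in the female values was not tested. In the 2 males the order was the other way, with 9928 normalized counts of Gfap in WT and 3033 in Sgo1-/+, which has no replicate. The males are WT replicate 1, which held brain stem and cerebellar RNA, and Sgo1-/+ replicate 2. Sex and the other traits of these libraries cannot be told apart there.

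The spread within the groups was large for the reactive genes and, among the identity genes, for Aqp4 and S100b. The pooled within-group SD on the log2 scale was 0.75 for Gfap, 1.01 for Vim, 0.76 for Serpina3n and 1.80 for Lcn2. Of the genes within 2-fold of the same level, 92.4, 98.3, 96.6 and 98.6% respectively had a smaller SD. Without WT replicate 1 the SDs were 0.73, 0.99, 0.88 and 1.75, above between 98.8 and 99.8% of genes of like level, so this spread did not rest on that library. For Aqp4 and S100b it fell from 0.77 and 0.87 to 0.37 and 0.23. These SDs were above those of 95.7 and 96.5% of genes of like level with all libraries and of 96.9 and 86.1% without WT replicate 1, where the shares for Slc1a3 and Gja1 were 81.6 and 76.9%. Gja1 and Slc1a3 had an SD of 0.20 each with all libraries, and without WT replicate 1 Slc1a2 had 0.10 and Aldh1l1 0.12. Gfap per Aldh1l1, a reactive gene set against an identity gene of the same libraries, ran from 4.46 in Sgo1-/+ replicate 2 to 10.8 in Sgo1-/+ replicate 3, with the 3 WT values between them.

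With all 6 libraries, further genes of astrocyte identity did not part the genotypes. Of 25 other identity genes, 0 had an unadjusted p under 0.05 in edgeR, 10 had a positive and 15 a negative log2 fold change, and the median was -0.15. Glul, the glutamine synthetase that takes up what the transporters bring in, was the most abundant per length, with 17202, 20285 and 16432 normalized counts in WT and 21166, 16214 and 19117 in Sgo1-/+ and a log2 fold change of 0.07 (SE 0.16). Aldoc, an aldolase of glycolysis, came next, with 21900 normalized counts in WT replicate 1 and 9819 to 13098 in the others. WT replicate 1 was highest of the 6 libraries for 23 of all 31 identity genes and lowest for 2 of them, against 28% and 30.3% of all genes tested. It was at least 2-fold above the median of the others for 8 of the 31, against 5% of all genes tested. Besides Aqp4 and S100b these were Aldoc, Kcnj10, Atp1b2, Slc7a10, Gpr37l1 and Pla2g7, named after their values were seen. Without this library the median over the 25 genes was 0.13 and 21 of the 25 had a positive log2 fold change. Over all genes in that fit the median was 0.0055. The genes Gpr37l1 and Ndrg2, 2 of the 25, then had an unadjusted p under 0.05 in edgeR with higher values in Sgo1-/+, against 1.86% of all genes.

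**Figure D5:**
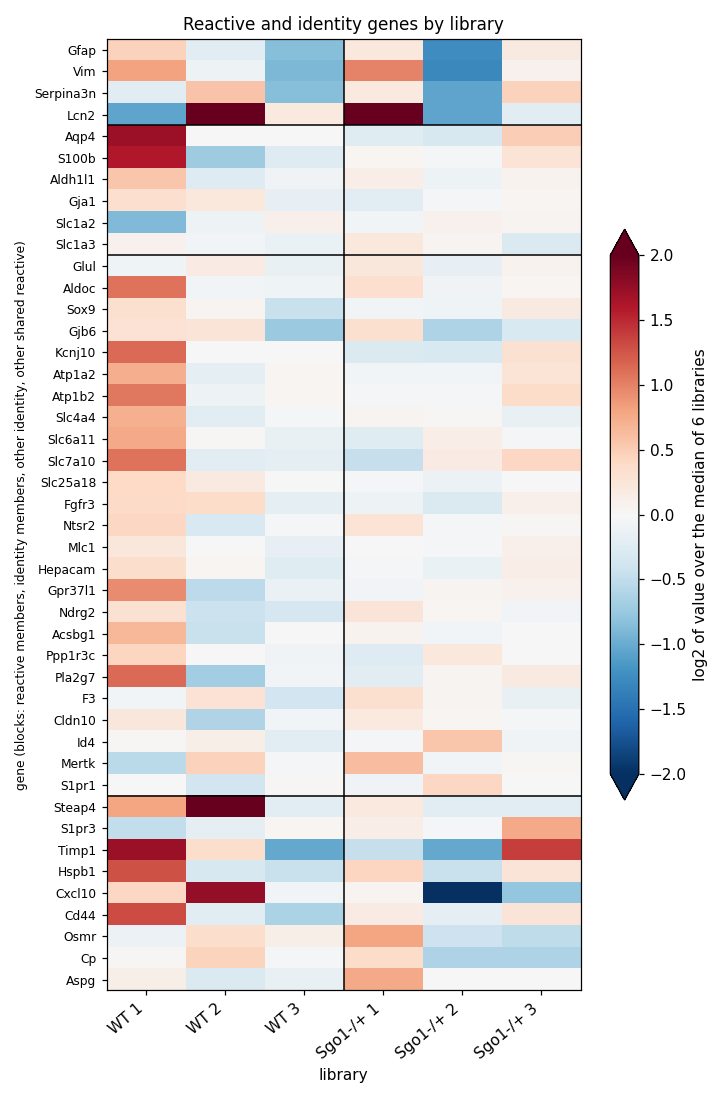
Log2 of each value over the gene's median of the 6 libraries, for the 4 reactive genes, the 6 identity genes, 25 other identity genes and 9 other genes of reactive astrocytes (rows), with values under 3 counts set to 3. WT replicate 1 is raised across most identity genes and low for Slc1a2, and Sgo1-/+ replicate 2 is low for the reactive genes.

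Other genes of reactive astrocytes did not part the genotypes either. Of 9 other genes that reactive astrocytes of many kinds make, 8 were tested, 0 had an unadjusted p under 0.05 in edgeR and the median log2 fold change of -0.29 turned to 0.45 when WT replicate 1 was left out. In that fit 1 of the 8, Cxcl10, had an unadjusted p under 0.05 and was lower in Sgo1-/+. Of all genes in that fit, 3.77% had such a p in either direction. Hspb1, a small heat shock protein, had 140, 46.7 and 42.6 normalized counts in WT and 78.5, 42.6 and 69.6 in Sgo1-/+. Cp, the copper carrier ceruloplasmin, had a log2 fold change of -0.37 (SE 0.30).

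Of 12 genes linked to inflammatory reactivity, 1 had an unadjusted p under 0.05, against 2.04% of all genes, and it was higher in Sgo1-/+. Ggta1, a galactosyltransferase, had 83.6, 81.9 and 82.2 normalized counts in WT and 204, 120 and 121 in Sgo1-/+. The groups did not overlap, which held for 6.81% of all genes. The log2 fold change was 0.84 (SE 0.25, unadjusted p 0.0125, adjusted p 0.9999 in edgeR). The 8 microglial genes summed to 278 to 354 CPM in WT and 381 to 420 in Sgo1-/+, also without overlap. Their part in the Ggta1 values was not tested. The median of the list of 12 genes was -0.26, or -0.10 without WT replicate 1, where Ggta1 was again the gene under this threshold. The MHC genes H2-D1 and H2-T23, the list's most abundant per length, had log2 fold changes of -0.35 (SE 0.32) and -0.03 (SE 0.20). Of 12 genes linked to ischaemic reactivity, 9 were tested, 0 had an unadjusted p under 0.05 and the median was 0.15, or 0.30 without WT replicate 1. Ptgs2, which encodes cyclooxygenase-2 and is made by neurons too, had 23.2, 152 and 172 normalized counts in WT and 243, 220 and 263 in Sgo1-/+. The groups did not overlap, again as for 6.81% of all genes. The test missed the threshold with a log2 fold change of 1.06 (SE 0.60). Leaving out WT replicate 1 brought Ptgs2 to 0.58 (SE 0.16, unadjusted p 0.00708, adjusted p 0.9995 in edgeR). In that fit 3.77% of all genes had an unadjusted p under 0.05.

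Among 15 regulators of astrocyte fate and reactivity, 14 were tested and 1 had an unadjusted p under 0.05, against 2.04% of all genes. Lif, a cytokine that acts on STAT3 through the receptor subunit Il6st, had 7.05, 3.81 and 8.12 normalized counts in WT and 13.9, 16.2 and 18.4 in Sgo1-/+, with a log2 fold change of 1.34 (SE 0.40, unadjusted p 0.0124, adjusted p 0.9999 in edgeR). All 6 counts were small, and Lif was the 1 gene of the list under that p without WT replicate 1 as well. Jak1 and Jak2, kinases of the same pathway, had log2 fold changes of 0.04 (SE 0.11) and -0.02 (SE 0.15). Of 10 intermediate filament genes 9 were tested and 0 had an unadjusted p under 0.05. Their median of -0.04 turned to 0.32 when WT replicate 1 was left out. There 1 of them, Nes, was higher in Sgo1-/+ at an unadjusted p of 0.048 in edgeR. Of all genes, 1.86% were higher at an unadjusted p under 0.05 in that fit. Of 9 genes of the glutamate and glutamine cycle 0 had such a p, and the median was 0.06, or 0.03 without WT replicate 1.

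The genes whose profile over the 6 libraries was nearest to that of Gfap were sought among 12989 genes with a mean of at least 50 counts. Nearness was the root mean square difference of log2 CPM after each gene was centred. Aass, an enzyme of lysine breakdown, was nearest at 0.10, followed by Vamp8, a protein of vesicle fusion, at 0.16 and Sgms2, a sphingomyelin synthase, at 0.19. Aass had 123, 83.8 and 52.7 normalized counts in WT and 99.3, 41.5 and 93.1 in Sgo1-/+. Vim ranked 31 and Serpina3n 377 by this measure, whereas the identity genes ranked between 860 and 11649. For Slc1a2 the nearest were Map3k10, a kinase, at 0.04 and Lrtm2, a leucine-rich repeat membrane protein, also at 0.04. Both were lowest in WT replicate 1, where Map3k10 had 1087 normalized counts against 1724 to 1989 in the other libraries. Slc1a3 ranked 8018 in nearness to Slc1a2.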

How the data were processed

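RNA-seq of 6 cerebrum libraries was used. The authors used Strand NGS to align the reads (mm10) and deposited an estimated count per gene and library, without normalization. The submitters' processing notes also list BWA and edgeR, without a role. The Ensembl release and the use of strand in counting are not given in the sources used here. The deposited values made by the authors' own normalization and comparison were not used.

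Estimated counts were rounded and tested with edgeR 4.0.16 (quasi-likelihood, TMM, default filter, 16337 genes, Benjamini-Hochberg adjustment). The SE is the fold change divided by the root of F. Levels per length used GENCODE exon lengths. The test was checked on simulated counts that varied less between libraries than these data, so the check does not cover their spread. Alternatives were DESeq2 1.42.0 (size factors, Wald test), limma 3.58.1 on log2 of DESeq-normalized counts plus 1, no filter, a stricter filter (10 counts or more in each library), a sex covariate, females only, a replicate block and each library left out. A count of 0 allows up to 3 counts, which covers counting error only.

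The genes and lists were chosen with earlier results of these data known. Named were the 10 genes, list genes with an unadjusted p under 0.05, the 2 most abundant per length of a list with fewer than 3 such genes, and the 3 nearest profiles of Gfap and of Slc1a2, of which 1 is not reported here. All others were named after their values were seen.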

Additional observations from a re-analysis of the deposited data

How the results depend on the processing

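Under the alternatives, 0 of the 10 astrocyte genes reached an adjusted p of 0.05. Gja1 (negative) and Slc1a2 (positive) kept their direction in 14 of 14 alternatives, and Lcn2 had 13, since it failed the filter of 10 counts in each library. The direction of Vim turned to -0.0085 with limma and that of Serpina3n to -0.062 with sex as a covariate. With females only, the log2 fold change was 0.69 for Gfap, 0.18 for Aqp4, 0.63 for S100b and 0.26 for Aldh1l1, all reversed, the median of the identity genes was 0.13, and 3 of the 10 genes had an unadjusted p under 0.05. With each library left out in turn, log2 fold changes ran from -0.31 to 0.35 for Gfap, -0.54 to 0.65 for Vim, -0.25 to 0.50 for Serpina3n, -1.90 to 1.48 for Lcn2, -1.09 to 0.026 for Aqp4, -0.85 to 0.56 for S100b, -0.24 to 0.20 for Aldh1l1 and -0.068 to 0.17 for Slc1a3. Leaving out WT replicate 1 reversed Gfap, Serpina3n (-0.03), Aqp4, S100b and Aldh1l1. Gfap also reversed without Sgo1-/+ replicate 2 (0.29), Vim without WT replicate 3 (-0.22) or Sgo1-/+ replicate 1, Serpina3n without WT replicate 3 (-0.22), Sgo1-/+ replicate 1 (-0.05) or Sgo1-/+ replicate 3, Lcn2 without WT replicate 2, Sgo1-/+ replicate 2 (0.33) or Sgo1-/+ replicate 3 (0.25), and Slc1a3 without WT replicate 3 (-0.002) or Sgo1-/+ replicate 1. Between 0 and 1 of the 10 genes had an unadjusted p under 0.05 in these fits, S100b without WT replicate 1 and Gja1 (-0.34) without WT replicate 3. Of all genes, 626 had such a p without WT replicate 1 and 1040 without WT replicate 3. The cause of these changes of direction and of call was not tested.

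Over all genes, 3 passed the adjusted threshold with DESeq2, 1 with females only and 0 to 1 with a library left out. The genes with an unadjusted p under 0.05 numbered 563 without a filter, 578 with females only and 240 to 1040 with a library left out, the lowest without Sgo1-/+ replicate 2 and the highest without WT replicate 3. With the replicate number as a block, 280 genes had an unadjusted p under 0.05 and 0 passed the adjusted threshold, and no call on the 10 genes changed. The deviations of same-numbered libraries from their group means correlated at -0.14, 0.0067 and -0.21, and those of differently numbered libraries at -0.22 to 0.29. Deviations from a mean of so few libraries depend on each other. These values therefore cannot show whether same-numbered libraries share more than a number.

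With 3 mice per group and a biological coefficient of variation of 25.9% (17.6% without WT replicate 1), only large differences could be detected. Lcn2, with 8.06 to 99.0 normalized counts, was the least precisely measured of the 10 genes.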
